A study of Strongylocentrotus purpuratus with 10 samples.

Results

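The candidate transcriptional regulatory elements described here stood alone in the sea urchin genome and were called in 12 h embryos but not in 20 h embryos. Nascent RNA was mapped by PRO-seq, a nuclear run-on assay that marks the 3′ ends of transcripts still held by RNA polymerase, in whole Strongylocentrotus purpuratus embryos reared at 15 degrees Celsius and aged 12 h or 20 h, with no other treatment in the labels. The labels list 4 libraries of 3 biological replicates at 12 h and 6 libraries of 4 biological replicates at 20 h, and name both ages hatching blastula, while the study's methods give fewer biological replicates. Reads were pooled within each stage, and dREG, which recognises the shape of divergent transcription initiation, gave 1 peak list per stage with a probability per peak. Every value below comes from those 2 pooled lists, so no error across embryo batches can be given.

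Members were chosen by position and by the presence or absence of calls. Peaks of the same list less than 500 bp apart were first merged into regions, which turned 43912 peaks into 31840 regions at 12 h and 56753 peaks into 39851 regions at 20 h. A 12 h region was a member when no other region of either list lay within 10 kb of its edges and its scaffold held at least 5 regions. This gave 2940 solitary 12 h-only regions, among 71691 merged regions of both lists, on 1443 of the 2446 scaffolds with at least 5 regions. They made up 9.90% of the 29707 merged 12 h regions on those scaffolds. Of these 29707 regions, 11332 had no overlapping 20 h region, a background of 38.1%, so the members were 25.9% of all 12 h-only regions. They were set against 3788 solitary regions of the 12 h list that overlapped a single 20 h region and had no further region within 10 kb, called retained solitary regions below. A further 54 solitary 12 h regions met neither definition.

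Enhancers and promoters of animal genes initiate short, often divergent transcripts, and this local initiation is what dREG reads. In the sea urchin, developmental regulatory genes are generally controlled by several separate elements, many of them distant from the promoter. Blastula stages are known for genes that are transcribed briefly and then shut off, such as those of the hatching enzyme and the early histones, but the lists give scaffold positions of genome version 3.1 and no gene names, and no member was assigned to a gene. An element counts as called at 12 h only when a listed peak at 12 h has no listed overlapping peak at 20 h. This is a difference between 2 call sets, in which stage, the number of reads and the embryo batches cannot be told apart. Sequencing was deeper at 20 h, going by the study's methods.

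Solitary 12 h-only regions were narrow and usually consisted of a single dREG peak. Their median width was 360 bp (95% order-statistic interval 350 to 360 bp, n = 2940), against 570 bp (560 to 590 bp, n = 3788) for retained solitary regions at 12 h, a difference of -210 bp (-232 to -200 bp). Intervals here cover counting error only and treat regions as independent, and with 1 pooled list per stage no test across samples was possible. The lower and upper quartiles were 280 and 480 bp in members and 400 and 880 bp in retained regions. The whole ranges overlapped almost entirely, from 90 to 2140 bp among members and from 130 to 2840 bp among retained regions. Widths over 1000 bp were found for 80 members (2.72%) and 675 retained regions (17.8%).

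More than 1 peak was merged into 260 of the 2940 members, or 8.84% (95% Wilson interval 7.87 to 9.92%), against 1508 of the 3788 retained regions, or 39.8% (38.3 to 41.4%). Members with more than 2 peaks numbered 36, and no member held more than 4. Part of the width difference therefore went with the number of peaks, but not all of it. Among single-peak regions the medians were 340 bp in members (n = 2680) and 430 bp in retained regions (n = 2280), a difference of -90 bp (-90 to -75.9 bp). Among regions of several peaks they were 850 bp (n = 260) and 960 bp (n = 1508).

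The difference in width recurred along the genome. On 1078 scaffolds that held both kinds of region, the members were narrower on average on 875 and wider on 202. The mean difference per scaffold was -0.63 on the log2 scale (SD over scaffolds 0.76), so single scaffolds varied widely around it. A wider region is more likely to touch a region of the other list by 1 bp, and the part of this rule in the difference was not tested.

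The 12 h-only share of solitary 12 h regions was lower in wider regions and in regions of more peaks. Over both groups together, 2940 of 6728 regions were 12 h-only, a share of 43.7% (42.5 to 44.9%). The share was 69.0% (61.03 to 75.9%) for regions of up to 200 bp, 71.6% (69.0 to 74.0%) for those over 200 and up to 300 bp, 45.9% (43.0 to 48.8%) for those over 400 and up to 500 bp, and 10.6% (8.60 to 13.0%) for those over 1000 bp. It was 54.0% for regions of 1 peak (2680 of 4960), 18.1% for 2 peaks (224 of 1241), 7.56% for 3 peaks (31 of 410) and 4.27% for 4 or more (5 of 117). The wide, composite elements among solitary regions were thus mostly those called at both stages.

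**Figure D1:**
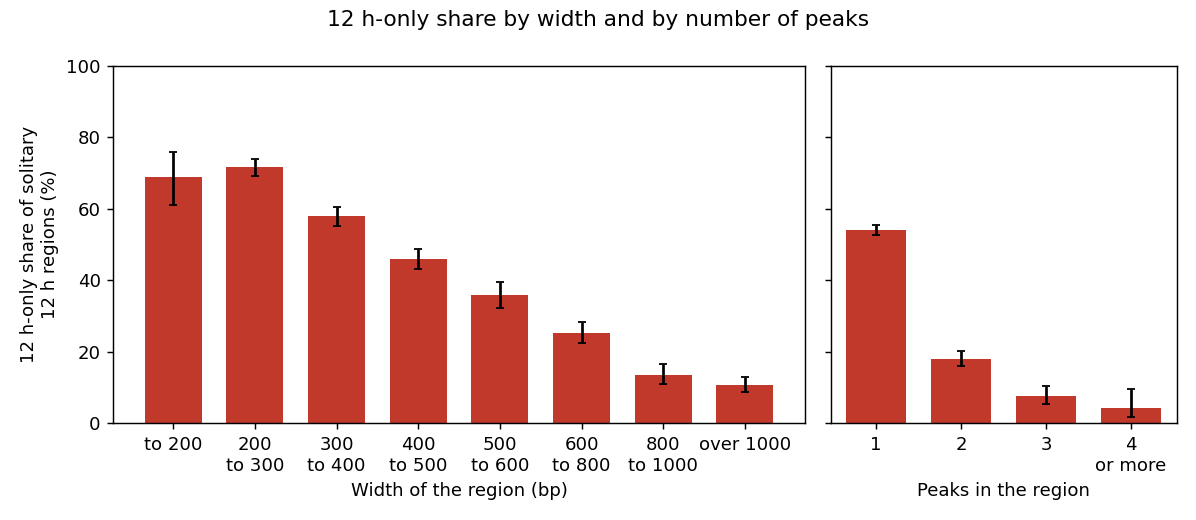
Bars are the share of solitary 12 h regions that were 12 h-only (y axis, %), by the width of the region in bp (left) and by the number of dREG peaks merged into it (right), over 2940 members and 3788 retained regions, with lines for 95% Wilson intervals. The share drops to 10.6% in regions over 1000 bp and to 4.27% in regions of 4 or more peaks.

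The support that dREG gave the members was weaker on the whole, but it was of 2 kinds. The p of a region is 1 minus the highest probability of its peaks, and both lists start at a probability of 0.95. Because p decides whether a peak is listed at all, its values are given as a description. The median p was 0.00138 in members and 8.82e-07 in retained regions. A p above 0.01, close to the edge of the list, was found for 940 members (32.0%, interval 30.3 to 33.7%) and 440 retained regions (11.6%, 10.6 to 12.7%). Conversely, 33.2% of members and 56.5% of retained regions had a p of 1e-05 or lower, a difference of -23.3 percentage points (-25.6 to -20.98). Both shares include regions at a probability of exactly 1. Without these, the median p was 0.00556 in members (n = 2298) and 3.73e-05 in retained regions (n = 2977).

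A probability of exactly 1 did not follow this order. It was listed for 642 members (21.8%, interval 20.4 to 23.4%) and 811 retained regions (21.4%, 20.1 to 22.7%), a difference of 0.427 points whose interval, -1.55 to 2.42, included 0. In the next class, with p above 0 and up to 1e-12, there were 27 members (0.918%) and 209 retained regions (5.52%). The members were therefore rare where support was very strong but short of the listed maximum, and common at the maximum itself. This was not particular to them, as solitary 20 h-only regions had 1.77% in the first of these classes and 20.1% at exactly 1. The file gives no decimals that would order regions within that top class. When only peaks with a p of at most 0.01 entered both lists, the difference at exactly 1 was 7.48 points (31.1% of members, 23.6% of retained regions). That cut takes out the class with p above 0.01, which held a larger share of members than of retained regions. The 2 differences are therefore not directly comparable.

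**Figure D2:**
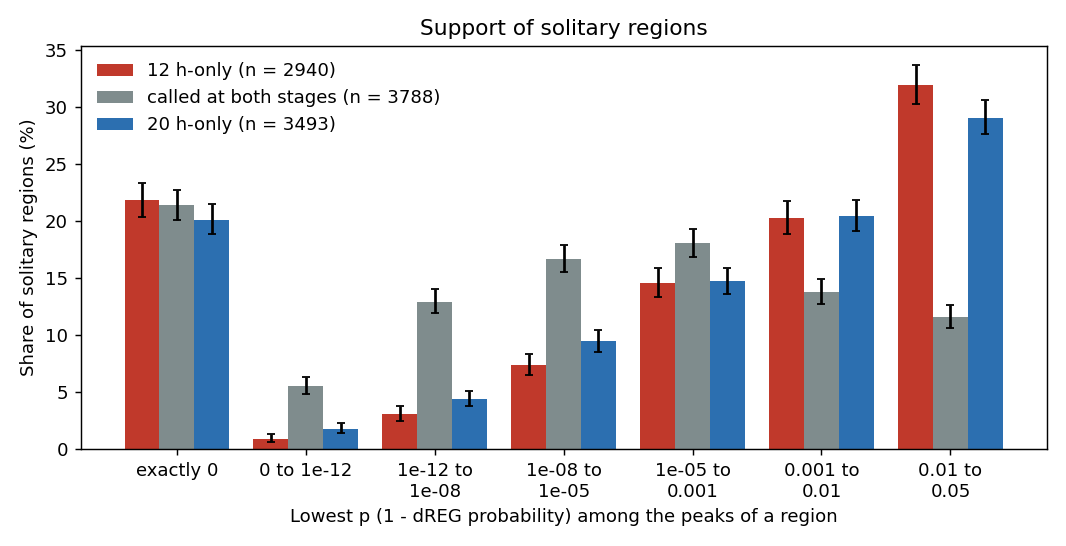
Share of solitary regions (y axis, %) in each class of the lowest p of a region (x axis, 1 minus the dREG probability), for 2940 12 h-only regions, 3788 regions called at both stages (their 12 h values) and 3493 20 h-only regions, with lines for 95% Wilson intervals. At a p of exactly 0 the 3 kinds lie between 20.1 and 21.8%, and the 12 h-only regions lead at p above 0.01 with 32.0%.

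Read as a 12 h-only share within each class of p, the same pattern was seen. The share was 11.4% (27 of 236) at p above 0 and up to 1e-12, 15.5% up to 1e-08, 25.6% up to 1e-05, 38.5% up to 0.001, 53.3% up to 0.01 and 68.1% (940 of 1380) above 0.01. At a probability of exactly 1 it was 44.2% (642 of 1453, interval 41.6 to 46.7%). Restricting both groups to single-peak regions raised that last share to 59.8% (576 of 963), against 16.0% (15 of 94) in the adjoining class.

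In the top class the members were narrower than the retained regions, and close in width to solitary 20 h-only regions. At a probability of exactly 1 the median width was 310 bp (300 to 320 bp) in members, 320 bp (310 to 330 bp) in solitary 20 h-only regions and 730 bp (710 to 780 bp) in retained regions. The members of this class were thus about as narrow as those of the weakest class, whose median was 305 bp at p above 0.01. In every class of p the members had the lower median, with 670 against 880 bp at p above 0 and up to 1e-12, and 305 against 340 bp at p above 0.01. Among single-peak regions at exactly 1, the medians were 295 bp (290 to 310 bp) in members, 290 bp (290 to 310 bp) in 20 h-only regions and 410 bp (380 to 430 bp) in retained regions. Regions of more than 1 peak made up 10.3% of the members, 15.4% of the 20 h-only regions and 52.3% of the retained regions at exactly 1.

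**Figure D3:**
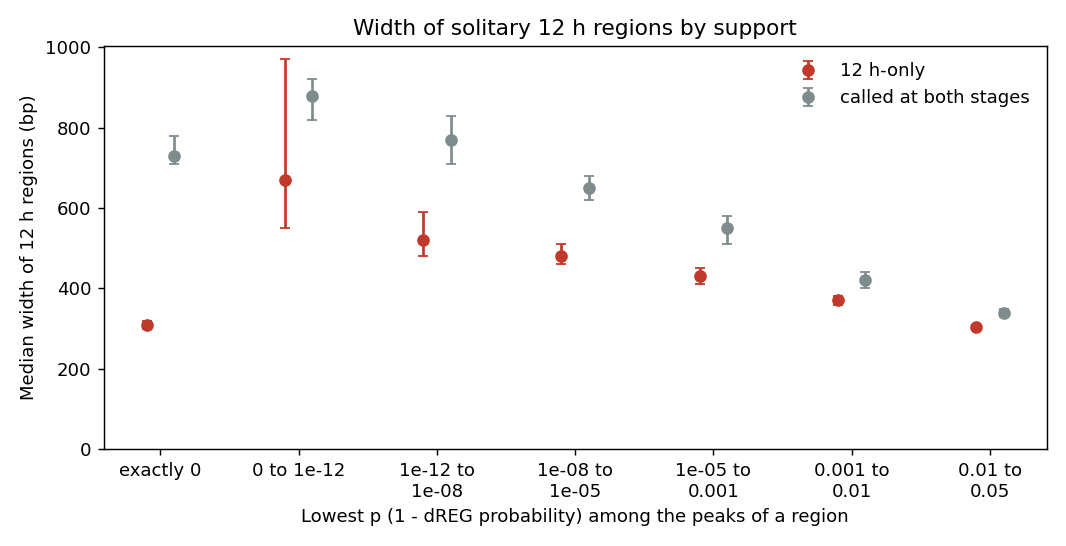
Median width of solitary 12 h regions in bp (y axis) in each class of the lowest p (x axis), for 12 h-only regions and for regions called at both stages, with lines for 95% order-statistic intervals. The gap is widest at a p of exactly 0, where the medians are 310 and 730 bp, and narrowest at p above 0.01, with 305 and 340 bp.

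Within the class at exactly 1, narrow regions were mostly 12 h-only and wide regions mostly retained. Up to 300 bp, 311 of 419 such regions were 12 h-only (74.2%, interval 69.8 to 78.2%). Over 800 bp, 33 of 395 were (8.35%, 6.01 to 11.5%). For p above 1e-05 the same width classes gave 70.2% (692 of 986) and 24.5% (74 of 302). Narrow regions with p above 0 and up to 1e-05 were few, 23 in all, of which 15 were 12 h-only. These width classes within classes of p were chosen after the values were seen.

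The members with the lowest p above 0 were Scaffold1182:341231-341810 (580 bp) and Scaffold54:125401-125910 (510 bp), each a single peak with a p of 4.00e-15. The first had a 12 h region 10470 bp to its left and no listed region to its right. The second lay 34690 bp from a 12 h region on its left and 28900 bp from a 20 h region on its right. A p of 1.80e-14 was shared by Scaffold2183:71661-72870 (1210 bp, 3 peaks), Scaffold299:565371-566310 (940 bp, 2 peaks) and Scaffold3095:78241-79040 (800 bp, 2 peaks). All 3 were the last listed region of their scaffold, with the nearest region 28350, 37600 and 21220 bp to the left. These 5 members were wider than the median member, as strongly supported members in general were, apart from those at exactly 1.

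The widest members at a probability of exactly 1 were Scaffold278:559571-561470 (1900 bp, 3 peaks), Scaffold310:349691-351310 (1620 bp, 3 peaks), Scaffold1142:49821-51350 (1530 bp, 3 peaks), Scaffold35:374671-376120 (1450 bp, 2 peaks) and Scaffold202:269681-271020 (1340 bp, 2 peaks). The member on Scaffold310 was flanked by 20 h regions at 50220 and 61590 bp, and that on Scaffold202 by a 12 h region at 113190 bp and a 20 h region at 28300 bp. The widest member of all, Scaffold6:1236291-1238430, spanned 2140 bp in 3 peaks with a p of 2.21e-08, and the third widest was Scaffold1154:17881-19760, at 1880 bp with a p of 0.000233. Composite elements of this size were exceptions among the members. At the other end, the highest p values were 0.04998, 0.0499 and 0.0497, in single peaks of 470 bp on Scaffold1364, 300 bp on Scaffold264 and 310 bp on Scaffold253.

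Solitary 12 h-only regions were close to the other 12 h-only regions in these values. The 8392 12 h-only regions with a neighbour within 10 kb had a median width of 370 bp (360 to 370 bp) and a median p of 0.00159, against 360 bp and 0.00138 in the members. Values on the 2 sides of the 10 kb limit were also close. The 240 members with the nearest region at 10 to 11 kb had a median width of 380 bp and a median p of 0.00146, and the 342 12 h-only regions at 9 to 10 kb had 350 bp and 0.00138. The members just inside the limit, all with a region 10010 bp away, were on Scaffold114 (570 bp, p 9.59e-06), Scaffold15 (330 bp, p 5.76e-05) and Scaffold58 (440 bp, p 0.0448). Just outside it, at 10000 bp, were 12 h-only regions on Scaffold11 (430 bp, p 2.29e-08), Scaffold1487 (580 bp, p 0.0190) and Scaffold326 (360 bp, p 0.00479).

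Set beside solitary regions called only at 20 h, the members were fewer but alike in shape. There were 2940 solitary 12 h-only and 3493 solitary 20 h-only regions, a ratio of 0.842. Median widths were 360 and 350 bp, a difference of 10 bp (-4.14 to 20 bp), and single-peak medians were 340 and 330 bp. A p above 0.01 was found for 32.0% of the 12 h-only and 29.1% of the 20 h-only regions, a difference of 2.89 points (0.629 to 5.15). More than 1 peak was merged in 8.84% and 10.4%. The members were 25.9% (25.1 to 26.8%) of all 12 h-only regions, whereas solitary regions were 18.0% (17.4 to 18.5%) of the 20 h-only regions, which made up 51.4% of the 37861 merged 20 h regions. The ratio turned round with 50 kb free of other regions, where 206 members stood against 165 20 h-only regions (1.25), and when the 20 h list was limited to its 43912 peaks of lowest p, as many as in the 12 h list (1.32). That limit took weak peaks from the 20 h list alone. With the same cut on both lists the ratio was 0.796 at p of at most 0.01 and 0.787 at p of at most 0.001.

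The 12 h-only share of all 12 h regions varied with the distance to the nearest other region, and was lowest at 1 to 2 kb. It was 40.03% (38.5 to 41.6%, 1571 of 3925) where that region was up to 1 kb away, 33.2% (31.9 to 34.4%) at 1 to 2 kb, 35.2% at 2 to 5 kb, 39.4% at 5 to 10 kb, 40.6% at 10 to 20 kb, 46.3% at 20 to 50 kb, 55.4% (50.04 to 60.7%) at 50 to 100 kb and 53.7% (38.7 to 67.9%, 22 of 41) over 100 kb. The share up to 1 kb was thus close to that at 10 to 20 kb. Peaks of the same list less than 500 bp apart had been merged, so any neighbour nearer than 500 bp came from the other list. The part of this step in the shares up to 1 kb was not tested. In the 20 h list the share called at that stage alone was 58.8% (57.6 to 60.1%, 3571 of 6068) up to 1 kb, 51.96% at 1 to 2 kb, 47.3% at 10 to 20 kb and 49.5% (43.8 to 55.2%) at 50 to 100 kb. Distance to the nearest region is part of the rule, so these shares are a description. Where 1 side had no listed region, the distance was that of the other side alone.

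**Figure D4:**
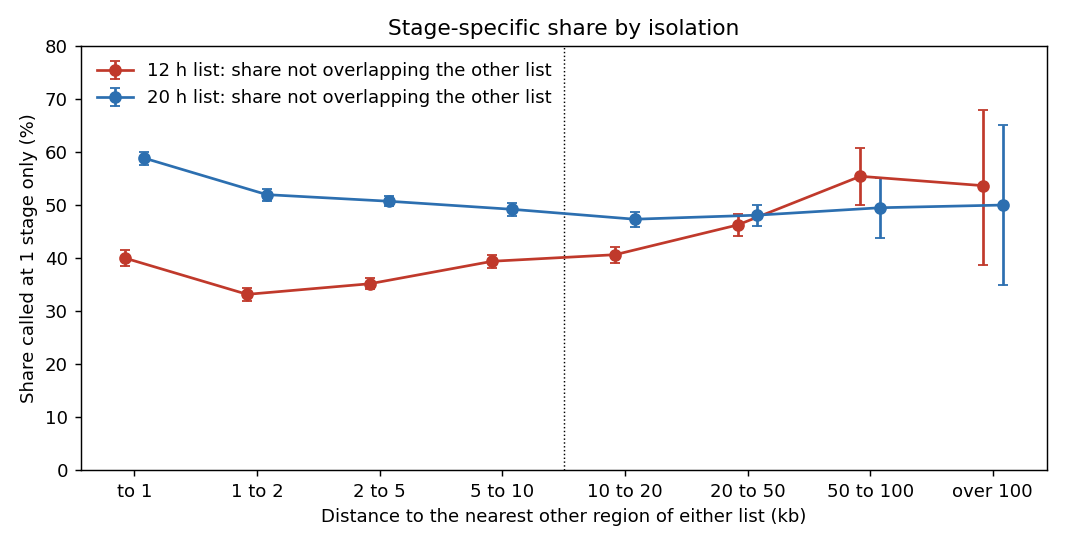
Share of merged regions with no overlapping region in the other list (y axis, %) by distance to the nearest other region of either list in kb (x axis), for the 12 h list and the 20 h list, on scaffolds with at least 5 regions, with 95% Wilson intervals and a dotted line at the 10 kb limit that defines solitary regions. The 12 h share is 40.03% up to 1 kb, lowest at 1 to 2 kb (33.2%) and 55.4% at 50 to 100 kb. The 20 h share is highest up to 1 kb (58.8%). After merging, neighbours nearer than 500 bp can only be of the other list.

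The rule asks for no other listed region within 10 kb of members and retained regions alike, so the distances below are a description. The nearest other region was a median of 18025 bp away (17520 to 18540 bp) for members and 16665 bp (16290 to 17080 bp) for retained regions, a difference of 1360 bp (706 to 1997 bp). No other region lay within 50 kb of 206 members (7.01%, interval 6.14 to 7.99%) and of 166 retained regions (4.38%, 3.78 to 5.08%). Where a region was listed on both sides, the stretch between those neighbours had a median length of 53090 bp for members (n = 2187) and 50010 bp for retained regions (n = 3018). Among members with a listed region on both sides, the farthest from either was Scaffold380:406311-406660 (350 bp, p 0.0140), between a 12 h region at 268660 bp and a 20 h region at 118480 bp. Next came Scaffold111:339131-339400 (270 bp, p 0.00667), 118120 bp from the nearest region, and Scaffold441:288391-288870 (480 bp, p 0.0193), 113220 bp away. All 3 were single peaks with p values well inside the weaker part of the list.

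Scaffold ends limited what could be seen around some members. A side without any listed region on the scaffold was found for 753 members (25.6%) and 770 retained regions (20.3%), and 185 members (6.29%) and 202 retained regions (5.33%) started within 10 kb of the first base of the scaffold. With regions near the scaffold start or the end of the last listed region left out, 2384 members and 3226 retained regions stayed, and the 12 h-only share was 42.5%.

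The kind of region found beyond the free 10 kb was not used to choose the members. Of 5127 sides of members with a neighbour, the nearest region was 12 h-only in 29.4% (28.1 to 30.6%), 20 h-only in 33.9% (32.6 to 35.2%) and shared in 36.8% (35.5 to 38.1%). Around retained regions these were 26.1%, 35.5% and 38.4% of 6806 sides, and around solitary 20 h-only regions 24.8%, 38.9% and 36.3% of 6301 sides. A 12 h-only neighbour was thus more frequent beside members than beside retained regions by 3.30 points (1.68 to 4.93). The difference is small, 2 neighbouring members count each other, and no test over samples was possible. Over all merged regions, with shared regions counted once, 23.0% were 12 h-only. That share covers regions at every distance, whereas these neighbours lay more than 10 kb away, so it is not a like background. Among 12 h regions with a neighbour within 10 kb, 36.5% were 12 h-only on scaffolds with members. On scaffolds with retained regions it was 36.0%.

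The members were spread thinly over the scaffolds. A single member was found on 710 scaffolds, 2 on 365, 3 on 184 and 4 or more on 184, and these last held 948 members. The most on any scaffold was 12, on Scaffold1, Scaffold2 and Scaffold33. Beside those 12 members, Scaffold1 held 10 retained and 8 solitary 20 h-only regions, Scaffold2 held 12 and 8, and Scaffold33 held 4 and 6. These are long scaffolds, with the last listed region ending at 2146100, 1707310 and 1572680. The 12 h-only share of solitary 12 h regions was 41.8% where the last region of the scaffold ended within 100 kb, 45.9% at 100 to 300 kb, 43.4% at 300 to 1000 kb and 41.4% over 1000 kb.

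Members sometimes followed each other with no other call between them. There were 299 runs of 2 consecutive members, 51 of 3 and 9 of 4 or more, while 2151 members had no other member as the next region on either side. The longest runs held 5 members, on Scaffold448 and on Scaffold83. On Scaffold448 the run covered 127320 bp, from 320751 to 448070, and its members in order were 560 bp wide (p 3.55e-12), 320 bp (probability exactly 1), 310 bp (p 0.00191), 240 bp (p 0.0469) and 420 bp (p 1.65e-05). No 20 h region was listed in that stretch, and the nearest lay 41760 bp to its left. On Scaffold83 the run covered 311010 bp, from 360561 to 671570, with widths of 290, 260, 220, 610 and 530 bp, and the first and last member were at exactly 1. Both runs ended with the last region listed on the scaffold, so their right ends are limits of the lists. Runs were picked as extremes and were not tested.

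**Figure D5:**
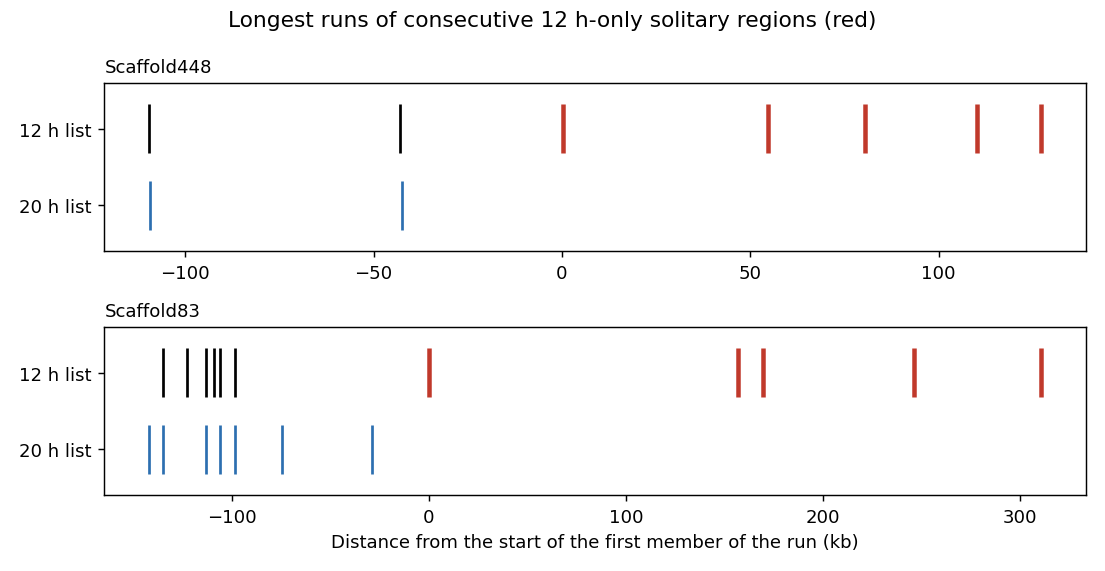
The 2 longest runs of consecutive solitary 12 h-only regions, with distance from the start of the first member in kb on the x axis and the 12 h and 20 h lists as rows, members in red, other 12 h regions in black and 20 h regions in blue. The 5 members span 127320 bp on Scaffold448 and 311010 bp on Scaffold83, and no 20 h region is listed within either run.

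The study also lists genomic elements near developmental regulatory genes that had been tested in reporter constructs. Positions and names of these elements on genome version 3.1 were used, and none of their measurements. No member overlapped such an element (0 of 2940, which allows a share of up to 0.102%, counting error only). The counts were 3 of 3788 retained regions, 3 of 3493 solitary 20 h-only regions, 11 of all 11332 12 h-only regions and 85 of all 29707 12 h regions. Overlaps were thus few in every solitary group, and the differences were not tested. The rule leaves out regions with a neighbour within 10 kb, so the contrast with all 12 h regions is a description. The retained regions were in elements of the FoxK, Six12 and FoxN23 loci, all of which encode transcription factors, and the 20 h-only regions in elements of Six12, Dach and IrxA. Of the 11 12 h-only regions that overlapped a tested element, none was solitary, while 25.9% of all 12 h-only regions were. With so few regions this is a description and was not tested.

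Members did occur on the scaffolds of those loci. There were 55, of which 5 lay within 50 kb of a tested element, a distance chosen after the values were seen. Of these, 2 were near Six12, a homeobox transcription factor locus, at Scaffold143:718981-719280 (300 bp, p 3.86e-07) and Scaffold143:701921-702240 (320 bp, p 0.0121). The others were Scaffold641:368561-368910 (350 bp, p 0.0489) near Not, a homeobox factor, Scaffold344:434861-435920 (1060 bp, p 5.71e-08) near Univin, a signalling ligand of the TGF-β family, and Scaffold119:872271-872510 (240 bp, probability exactly 1) near Dlx, another homeobox factor. All 5 were single peaks. In the order named, they lay 7871, 24911, 23984, 43341 and 49354 bp from the nearest tested element. The same counts are not given for other regions, so the 55 and the 5 have no background beside them. The positions of these members give no target gene.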

How the data were processed

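Per the labels and the methods of the study, the authors mapped PRO-seq reads to S. purpuratus genome version 3.1 with proseq2.0, merged replicates and predicted elements with dREG. The deposited value is a fraction, the dREG probability of each peak, with 1 pooled list per stage. Tool versions and the probability threshold are not given in the sources used here. Which libraries entered each pool, and the reads behind each peak, are unknown.

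Peaks were merged and grouped as described above (overlap of at least 1 bp, edge-to-edge distances) in Python 3.11.15 with scipy 1.17.1, pandas 2.3.3 and numpy 2.4.6. Shares have 95% Wilson intervals and medians 95% binomial order-statistic intervals. Intervals of differences follow Newcombe's method. The grouping code was tested on simulated data. Members and lists were chosen with earlier results of these data known. Regions named were the extremes in p, width, distance, number per scaffold and run length. The gene table at hand is of build 5.0, so no sequence or gene was assigned.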

Additional observations from a re-analysis of the deposited data

How the results depend on the processing

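No paired analysis was possible because each stage has 1 pooled list and no value per replicate. All 13 alternatives changed 1 choice each. Here, away from scaffold ends means more than 10 kb from the scaffold start and from the end of the last listed region. Scaffold lengths were not used. The number of members moved most with the free distance, to 5221 at 5 kb, 1273 at 20 kb and 206 at 50 kb. It was 3760 with lists of equal size, 3739 on scaffolds with at least 1 region and 2077 with at least 20. Away from scaffold ends it was 2384. The 12 h-only share of solitary 12 h regions moved to 42.0% at 5 kb, 47.9% at 20 kb, 55.5% at 50 kb, 47.7% with only peaks 20 bp apart joined, 42.4% with peaks under 1000 bp apart joined, 46.6% on scaffolds with at least 1 region and 42.2% with at least 20, 42.5% away from scaffold ends, 46.1% at p of at most 0.001, 46.1% with peaks at exactly 1 left out and 50.1% with lists of equal size. The ratio to solitary 20 h-only regions was 0.760 at 5 kb, 0.970 at 20 kb, 1.25 at 50 kb, 0.887 on scaffolds with at least 1 region and 0.789 with at least 20, 0.801 away from scaffold ends, 0.796 at p of at most 0.01, 0.787 at p of at most 0.001, 0.790 without peaks at exactly 1 and 1.32 with lists of equal size. The median width difference, members minus retained regions, kept its sign throughout and left its interval at -180 bp (50 kb), -170 bp (peaks 20 bp apart joined), -180 bp (no peaks at exactly 1) and -250 bp (equal size). The difference in regions of more than 1 peak did so at -23.3 points (50 kb), -25.8 points (20 bp) and -33.9 points (equal size). The difference at p of 1e-05 or lower moved to -17.0 points (50 kb), -18.2 points (p of at most 0.01), -11.2 points (p of at most 0.001), -29.4 points (no peaks at exactly 1) and -26.2 points (equal size). That at exactly 1 moved to -2.15 points (50 kb), 7.48 points (p of at most 0.01) and 14.5 points (p of at most 0.001), and cannot be computed without those peaks. It was also below 0 at 20 kb (-0.178) and on scaffolds with at least 20 regions (-0.351). The causes of these moves were not tested.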
